A study of Arabidopsis thaliana with 47 samples.

Results

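The genes described here are the 4 Dicer-like genes of Arabidopsis thaliana (DCL1, DCL2, DCL3 and DCL4), 3 RNA-dependent RNA polymerase genes (RDR1, RDR2 and RDR6) and HEN1, which encodes the methyltransferase that protects plant small RNAs. They were taken by their gene identifiers from the 33602 genes listed in each RNA-seq table, and all 8 were found there. For each gene the mRNA level was read in 9 RNA-seq libraries, and peaks within 1 kb of the gene were read in 22 ChIP-seq peak lists.

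Dicer-like enzymes cut double-stranded RNA into small RNAs of set lengths, and RNA-dependent RNA polymerases make the double strand from a single-stranded template. DCL1 makes microRNAs, DCL4 and RDR6 make trans-acting small interfering RNAs, DCL2 and RDR1 are known from antiviral defence, and RDR2 and DCL3 work downstream of RNA polymerase IV (Pol IV) in RNA-directed DNA methylation (RdDM). HEN1 adds a methyl group to the 3′ end of each strand of a small RNA duplex, which keeps the RNA from being uridylated and degraded.

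The study asked where MORC proteins, a family of ATPases that help to keep transposons silent, bind in the genome, and how this depends on RdDM. All plants were Columbia-0. MORC7 and MORC4 carried a FLAG tag, were expressed from their own promoters in morc7-1 and morc4-1 plants, and were pulled down with an anti-FLAG antibody. MORC7 was mapped in 3 libraries of otherwise wild-type plants (each still morc7-1), in 9 libraries of the RdDM mutants nrpd1-4 (2), nrpe1-11 (2), nrpd1-4 nrpe1-11 (2) and dms3-4 (3), and in 1 library of met1-3, which lacks the enzyme that maintains CG methylation. NRPD1 and NRPE1 are the largest subunits of Pol IV and Pol V, and DMS3 is needed to bring Pol V to chromatin. Further lists came from MORC4 (2 libraries), plants without a tag (2), RNA polymerase II (Pol II) in wild type and in hex (1 each), a line with MORC7-FLAG and DMS3-HA fused to a zinc finger (1 with anti-HA, 1 with anti-FLAG), and MORC7-FLAG plants with anti-HA (1). The hex plants carry morc1-2, morc2-1, morc4-1, morc5-1, morc6-3 and morc7-1. RNA-seq had 3 libraries each of WT, nrpe1 and hex.

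Most of the mutated genes went against the RNA-seq labels. MORC1 was at 1.77 to 2.06 TPM (a level per transcript length, scaled to the same total in each library) in the libraries labelled nrpe1 and at 7.42 to 9.17 TPM in the other 6 libraries. NRPE1 was at 0.50 to 0.62 TPM in the libraries labelled hex and at 1.08 to 1.74 TPM in the other 6 libraries. Its difference between the libraries labelled hex and WT was not called (-0.74, SE 0.14, adjusted p 0.13 by limma). MORC1, MORC2, MORC6 and MORC7 were called lower in the libraries labelled nrpe1 than in WT. MORC4 was called higher there (12.35 to 13.82 TPM, against 4.40 to 5.68 TPM in WT and 5.30 to 5.77 TPM in the libraries labelled hex), and MORC5 was at 0.24 TPM or less in all 9 libraries and was not tested. The groups are therefore called the libraries labelled nrpe1 and the libraries labelled hex. Where an RNA-seq comparison is shortened to nrpe1 or hex, the label is meant, not the genotype. Each direction below is that of a label. The tissue label also differed between sources. The sample characteristics named floral tissue at 5 to 6 weeks, while the RNA protocol in the labels named leaves at 3 weeks. The floral organ genes AP1 and LFY were at 0.04 TPM or less in all 9 libraries, and the summed level of the 6 floral markers was 1.38 to 3.06 TPM. The leaf gene RBCS1A (small subunit of Rubisco) was at 13522 to 27636 TPM. Libraries labelled nrpe1 replicates 2 and 3 and labelled hex replicate 3 stood apart, with correlations of 0.92 to 0.97 with the WT libraries, against 0.98 to 0.99 for the other mutant libraries. Sequencing depth is not known from TPM values.

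All 8 genes were expressed at low levels. The mean level in WT was below the median of all tested genes (10 TPM) for each of them, and each reached at least 1 TPM in all 9 libraries. RDR6 (7.79 ± 0.82 TPM, SD, n = 3) and DCL1 (6.88 ± 0.35 TPM) had the highest WT means, and their libraries overlapped. RDR1 (5.11 ± 0.45 TPM) and DCL2 (5.00 ± 0.38 TPM) followed, and also overlapped with each other. HEN1 (2.97 ± 0.44 TPM) and DCL4 (2.57 ± 0.11 TPM) formed the next overlapping pair. DCL3 (2.02 ± 0.04 TPM) and RDR2 (1.64 ± 0.07 TPM), the genes of the RdDM pathway, were the lowest and did not overlap with each other. Across all 9 libraries DCL1 varied least, with a highest level 1.15 times the lowest, and RDR1 varied most, with a ratio of 3.06.

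**Figure D1:**
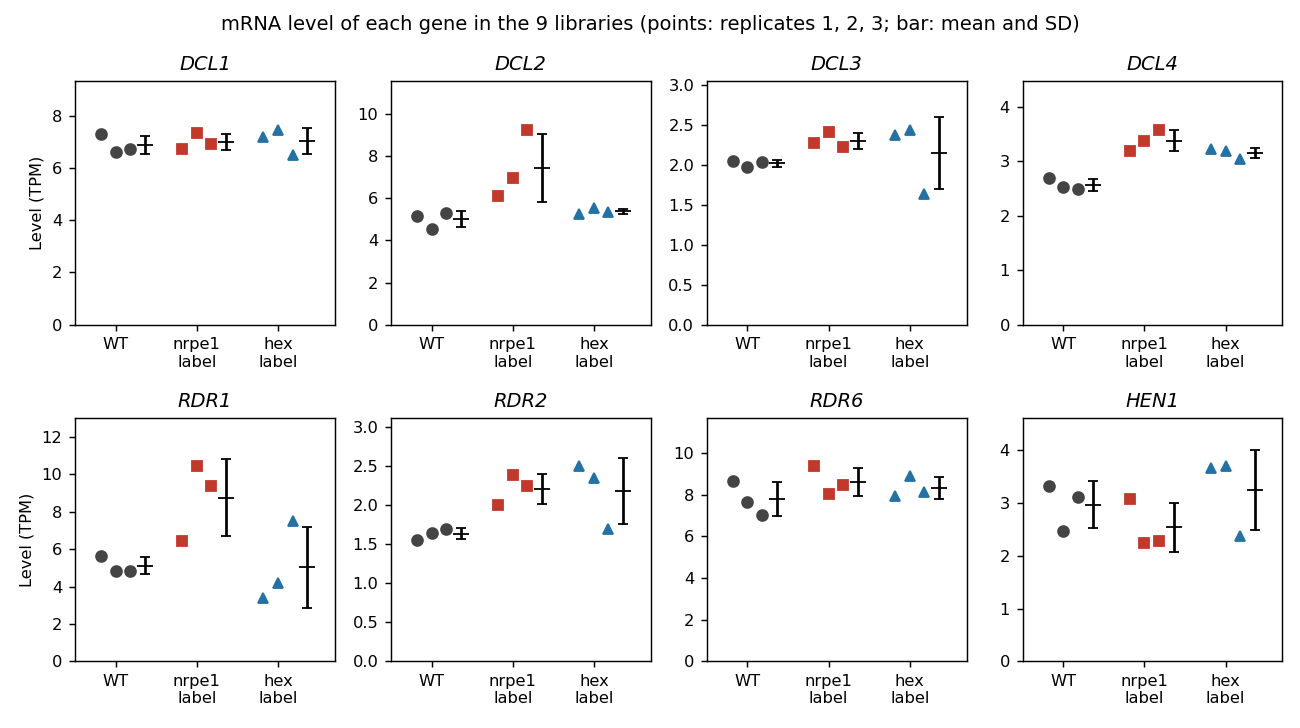
Level in TPM (vertical axes from 0, with a scale of its own for each gene) of the 8 genes in the 9 RNA-seq libraries. Points are replicates 1, 2 and 3 of each label, and bars are the mean and SD. DCL1 lies between 6.48 and 7.46 TPM in every library, while RDR1 ranges from 3.40 to 10.42 TPM.

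No gene of the 8 passed the threshold for a called change (adjusted p below 0.05 and at least 2-fold, limma on log2(TPM + 1) over 17459 genes, Benjamini-Hochberg adjustment) in any of the 3 comparisons. The 2-fold limit of RNA-seq is throughout on the log2(TPM + 1) scale, where a ratio between low TPM values appears smaller than it is in TPM. Over all tested genes, 0.321% were called between the libraries labelled hex and WT, 3.94% between those labelled nrpe1 and WT, and 0.596% between those labelled hex and labelled nrpe1. At an unadjusted p below 0.05 the counts were 1 of 8 for hex against WT, 4 of 8 for nrpe1 against WT and 2 of 8 for hex against nrpe1, beside 4.74%, 44.3% and 28% of all tested genes. With the adjusted p alone, 2 of 8 genes (DCL2 and DCL4) were higher in the libraries labelled nrpe1 than in WT, where 15.3% of all genes were higher by that rule. The 3 libraries labelled nrpe1 lay above all 3 WT libraries for 5 of 8 genes, beside 30.3% of all genes, and those labelled hex did so for 1 of 8, beside 11.3%. The libraries labelled hex lay below those labelled nrpe1 for 1 of 8 (DCL2), beside 14.7%. The median difference from WT over the 8 genes was 0.21 (nrpe1) and 0.09 (hex) on the log2(TPM + 1) scale, and over all tested genes it was 0.08 and 0.02. The comparisons share libraries, so they are not independent of each other. In bulk tissue, fewer cells of a type and less RNA per cell cannot be told apart.

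**Figure D2:**
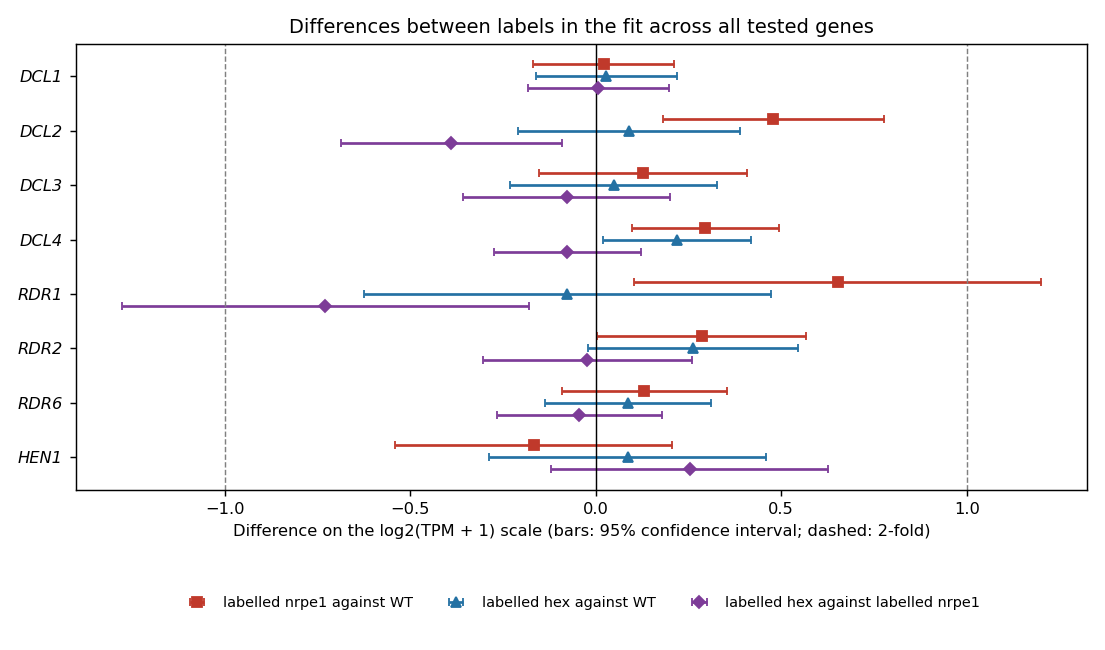
Difference in level (horizontal axis, log2(TPM + 1) scale) of each gene in the 3 comparisons of labels. Points are limma estimates, bars are 95% confidence intervals and dashed lines mark a 2-fold change. DCL2 (0.48) and DCL4 (0.30) in the libraries labelled nrpe1 against WT are the differences with an adjusted p below 0.05, and no estimate reaches 2-fold.

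DCL1 (AT1G01040, chromosome 1, bases 23121 to 31227, plus strand) makes microRNAs and is itself cut by one of its products, miR162. The microRNA and its site in the DCL1 mRNA are shown because the mRNA and a precursor of the microRNA were measured in the same libraries. The site was found in the TAIR10.1 sequence at the junction of exons 12 and 13, with 12 of its 22 bases in exon 12. In the microRNA, capitals mark the seed (bases 2 to 8), and in the site they mark the 21 bases that pair with it around 1 unpaired base in lower case.
ath-miR162a-3p (chr5:2634936-2634956, minus strand): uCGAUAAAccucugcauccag
DCL1 site (chr1:27522-27627, plus strand, intron removed): CTGGATGCAGAGGTaTTATCGA
miR162b has the same mature sequence as miR162a.

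DCL1 was steady across labels. Its level was 7.28, 6.62 and 6.73 TPM in WT, 6.74, 7.32 and 6.92 TPM in the libraries labelled nrpe1, and 7.17, 7.46 and 6.48 TPM in those labelled hex. The 3 groups overlapped, and the 95% intervals of the differences from WT (-0.17 to 0.21 for nrpe1 and -0.16 to 0.22 for hex, log2(TPM + 1) scale) excluded a change of 2-fold. The precursor gene of miR162a, MIR162A, was at 14.29, 11.44 and 12.24 TPM in WT, at 17.03, 22.62 and 18.70 TPM in the libraries labelled nrpe1, and at 11.93, 10.14 and 14.96 TPM in those labelled hex. MIR162A lay above all WT libraries in each library labelled nrpe1 (difference 0.58, SE 0.15, adjusted p 0.040 by limma), although by less than 2-fold. Among 8 tested small RNA precursors it was the 1 higher by adjusted p and the 1 above all WT libraries, beside 15.3% and 30.3% of all genes. The mature microRNA was not measured. MIR162B was listed at 0 in all libraries. MIR838A, whose hairpin lies inside a DCL1 intron, was at 0.00 to 1.47 TPM. An antisense noncoding gene (AT1G03993) covers 788 bases of DCL1 exons, 12.5% of them.

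DCL2 and DCL4 can partly replace each other, and DCL4 is the main maker of trans-acting and antiviral small RNAs of the shorter size class. DCL2 (AT3G03300, chromosome 3, bases 767880 to 776214, minus strand) was at 5.15, 4.56 and 5.28 TPM in WT, at 6.11, 6.98 and 9.25 TPM in the libraries labelled nrpe1, and at 5.27, 5.52 and 5.33 TPM in those labelled hex. The libraries labelled nrpe1 were above every other library, with replicate 3 the highest. DCL2 was higher there than in WT by 0.48 (SE 0.13, 95% interval 0.18 to 0.78, log2(TPM + 1) scale, adjusted p 0.040 by limma). The libraries labelled hex differed from WT by 0.09 (SE 0.13, adjusted p 0.94). The difference between the libraries labelled hex and labelled nrpe1 was -0.39 (SE 0.13, adjusted p 0.14) and missed the threshold, although without labelled nrpe1 replicate 1 it was -0.51 (adjusted p 0.020), under 2-fold. DCL2 shares 515 exon bases on the same strand, 9.6% of its exons, with AT3G03305, so that reads there may be split between them.

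DCL4 (AT5G20320, chromosome 5, bases 6859212 to 6869307, minus strand) was at 2.69, 2.52 and 2.49 TPM in WT, at 3.19, 3.37 and 3.58 TPM in the libraries labelled nrpe1, and at 3.23, 3.19 and 3.04 TPM in those labelled hex. All 6 mutant libraries were above all 3 WT libraries, and the groups of mutants overlapped. The difference from WT was 0.30 (SE 0.09, 95% interval 0.10 to 0.49, adjusted p 0.045 by limma) for the libraries labelled nrpe1 and 0.22 (SE 0.09, 95% interval 0.02 to 0.42, adjusted p 0.93) for those labelled hex. The adjusted p of DCL2 and of DCL4 rose above 0.05 when any 1 of WT replicates 1, 2 and 3 or the libraries labelled nrpe1 replicates 2 and 3 was left out (0.08 to 0.13 for DCL2, 0.11 to 0.13 for DCL4), and stayed below it without labelled nrpe1 replicate 1 (0.0064 and 0.028). Over all genes, the count called at 2-fold in the libraries labelled nrpe1 moved from 688 to between 32 and 83 in the first 5 of these cases and to 1606 in the last.

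The pattern of DCL2 over the 9 libraries was most like that of SAC51 (a gene of thermospermine response) and of AT5G64341 and AT5G64342, each with Pearson r = 0.993. These 3 have adjacent identifiers and the same TPM in every library, so they count as 1 measurement. The pattern of DCL4 was most like those of AT1G72855 (0.988), AT3G17712 (0.981) and MED8, a Mediator subunit (0.974). These are the 3 highest of 17459 values on the log2(TPM + 1) scale for each gene, from 9 libraries that share their labels, and are given as a description.

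DCL3 and RDR2 act in RdDM, where RDR2 copies Pol IV transcripts and DCL3 cuts the double strand into the small RNAs that guide methylation. DCL3 (AT3G43920, chromosome 3, bases 15753387 to 15760859, plus strand) was at 2.05, 1.97 and 2.04 TPM in WT, at 2.27, 2.41 and 2.22 TPM in the libraries labelled nrpe1, and at 2.37, 2.44 and 1.63 TPM in those labelled hex. Labelled hex replicate 3 was the lowest of all libraries and the other mutant libraries were above WT. RDR2 (AT4G11130, chromosome 4, bases 6780449 to 6784632, plus strand) was at 1.56, 1.65 and 1.70 TPM in WT, at 2.01, 2.39 and 2.25 TPM in the libraries labelled nrpe1, and at 2.50, 2.35 and 1.70 TPM in those labelled hex. The same replicate, labelled hex 3, was level with the highest WT library for RDR2 and below the other 5 mutant libraries. None of the differences from WT passed the threshold for either gene. For the libraries labelled nrpe1 they were 0.13 for DCL3 (SE 0.12, adjusted p 0.44 by limma) and 0.29 for RDR2 (SE 0.12, adjusted p 0.11). For those labelled hex they were 0.05 for DCL3 (SE 0.12, adjusted p 0.95) and 0.26 for RDR2 (SE 0.12, adjusted p 0.93).

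RDR1 is known as a gene that salicylic acid and virus infection induce. RDR1 (AT1G14790, chromosome 1, bases 5093961 to 5098270, minus strand) was at 5.63, 4.85 and 4.85 TPM in WT, at 6.45, 10.42 and 9.36 TPM in the libraries labelled nrpe1, and at 3.40, 4.18 and 7.49 TPM in those labelled hex. The libraries labelled nrpe1 were above WT in 3 of 3, whereas those labelled hex lay on both sides of WT. The difference between the libraries labelled nrpe1 and WT was 0.65 (SE 0.24, 95% interval 0.10 to 1.20, adjusted p 0.073 by limma), and that between labelled hex and labelled nrpe1 was -0.73 (SE 0.24, adjusted p 0.13), neither of which passed the threshold. Without labelled nrpe1 replicate 1 the adjusted p was 0.023 against WT (difference 0.83) and 0.025 between the mutants (-0.91), still under 2-fold, and without labelled hex replicate 3 the difference between the mutants was -1.01 with an adjusted p of 0.036, past both limits.

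RDR1 was set beside genes of the salicylic acid response, a hormone pathway of defence against pathogens. The summed level of 11 such genes was 166.88, 130.57 and 96.20 TPM in WT, 207.16, 271.95 and 163.10 TPM in the libraries labelled nrpe1, and 79.91, 95.49 and 249.04 TPM in those labelled hex. Pearson r between RDR1 and this sum was 0.866 over the 9 libraries on the log2 scale, while for the other 7 genes it lay between -0.71 (HEN1) and 0.36 (DCL2). The 9 libraries share their labels, so r is given as a description. The transcription factor gene WRKY70 made up much of the sum (105.81 of 271.95 TPM in labelled nrpe1 replicate 2 and 99.11 of 249.04 TPM in labelled hex replicate 3). Not all of the list followed RDR1. In labelled nrpe1 replicate 3, where RDR1 was at 9.36 TPM, WRKY70 was at 45.36 TPM (35.35 to 70.14 TPM in WT), NIMIN1 at 0.19 TPM (1.92 to 3.41 TPM in WT) and PR1 at 0.06 TPM (listed at 0 in WT). In the libraries labelled nrpe1 against WT, 3 of the 11 genes were called higher and none lower, beside 2.31% of all genes called higher. These were PR2, a secreted glucanase (1.47, SE 0.44, adjusted p 0.045 by limma), PAD4, a regulator of salicylic acid signalling (1.19, SE 0.31, adjusted p 0.039), and CBP60G, a transcription factor for salicylic acid synthesis (1.17, SE 0.27, adjusted p 0.038). In the same comparison 5 of the 11 had an unadjusted p below 0.05, beside 44.3% of all genes. Whether the 3 calls hold with 1 library left out was not tested. None of the 11 was called in the other comparisons, where 0 and 4 had an unadjusted p below 0.05 in hex against WT and hex against nrpe1, beside 4.74% and 28% of all genes. The 3 genes with patterns most like RDR1 were AT1G64710 (r = 0.994), MLO2 (0.993) and the peroxidase gene PRXCB (0.987), which were named after the values were seen because RDR1 passed no threshold.

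**Figure D3:**
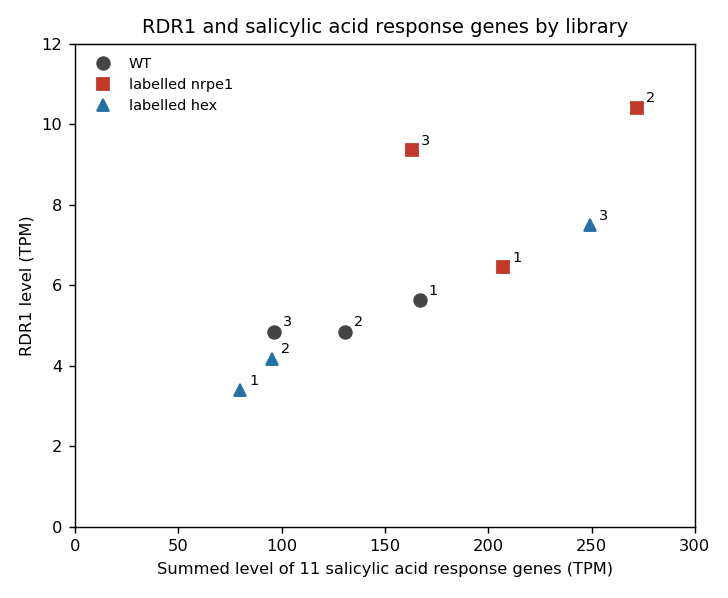
Level of RDR1 (vertical axis, TPM) against the summed level of 11 salicylic acid response genes (horizontal axis, TPM), 1 point per library with its replicate number. Labelled nrpe1 replicate 2 has the highest values on both axes (10.42 and 271.95 TPM) and labelled hex replicate 1 the lowest (3.40 and 79.91 TPM).

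Levels of some marker genes also differed between libraries. RBCS1A was at 21497, 16400 and 13522 TPM in the libraries labelled nrpe1 and at 25719 to 27636 TPM in WT, and the leaf gene LHCB1.1 was also lower in the libraries labelled nrpe1 (-0.43, SE 0.13, adjusted p 0.045 by limma). In labelled hex replicate 3 RBCS1A was at 21320 TPM, against 26422 and 25974 TPM in replicates 1 and 2 of that label. For LHCB1.1 the level was 9738 TPM in replicate 3, against 12465 and 12715 TPM. VGD1, a pollen gene, was at 29.24 TPM in labelled nrpe1 replicate 3, where DCL2 was highest, and at 0.70 TPM or less in the other 8 libraries. SAG12, a gene of senescent leaves, was at 3.33 TPM in that library and listed at 0 elsewhere. The root and seed markers summed to 0.41 TPM or less and 0.08 TPM or less in every library. The part of these differences in the levels of DCL2, DCL4 and RDR1 was not tested.

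RDR6 and HEN1 passed no threshold in any comparison. RDR6, which makes the second strand of trans-acting small RNA precursors and of transgene transcripts (AT3G49500, chromosome 3, bases 18348974 to 18353673, minus strand), was at 8.67, 7.65 and 7.05 TPM in WT, at 9.36, 8.02 and 8.46 TPM in the libraries labelled nrpe1, and at 7.93, 8.90 and 8.13 TPM in those labelled hex. All 3 groups overlapped, with differences from WT of 0.13 (95% interval -0.09 to 0.35) and 0.09 (95% interval -0.14 to 0.31). HEN1 (AT4G20910, chromosome 4, bases 11185936 to 11191123, minus strand) was at 3.32, 2.47 and 3.11 TPM in WT, at 3.08, 2.25 and 2.28 TPM in the libraries labelled nrpe1, and at 3.66, 3.69 and 2.37 TPM in those labelled hex. The 3 libraries that stood apart held the 3 lowest HEN1 levels (2.25 to 2.37 TPM), just under WT replicate 2. Its differences from WT were -0.17 (95% interval -0.54 to 0.21) for the libraries labelled nrpe1 and 0.09 (95% interval -0.29 to 0.46) for those labelled hex.

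Genes that work with the 8 were read by the same rule. Of 28 partners (such as double-stranded RNA-binding proteins, cap-binding proteins, exonucleases, uridylyltransferases and Pol IV factors), 25 were tested and none was called at 2-fold in any comparison, while 3, 8 and 5 had an unadjusted p below 0.05 in hex against WT, nrpe1 against WT and hex against nrpe1, beside 4.74%, 44.3% and 28% of all genes. With the adjusted p alone, 3 were higher and 1 was lower in the libraries labelled nrpe1 than in WT, beside 15.3% and 7.68% of all genes, and these are named after their values were seen. SGS3, which stabilises the template of RDR6, was at 8.58, 7.99 and 10.02 TPM in WT and at 11.19, 12.31 and 15.15 TPM in the libraries labelled nrpe1 (0.49, SE 0.12, adjusted p 0.039 by limma). URT1, a terminal uridylyltransferase that also acts on unmethylated microRNAs, was higher by 0.43 (SE 0.11, adjusted p 0.039) and RDR3 by 0.55 (SE 0.15, adjusted p 0.041). ABH1, the large cap-binding subunit that helps microRNA processing, was at 14.17, 13.61 and 14.02 TPM in WT, at 9.89, 8.68 and 9.48 TPM in the libraries labelled nrpe1, and at 10.87, 10.59 and 9.02 TPM in those labelled hex. ABH1 was below WT in all 6 mutant libraries (-0.53, SE 0.09, adjusted p 0.031 for nrpe1, and -0.42, SE 0.09, adjusted p 0.18 for hex). Of the other members of the RDR family, RDR4 and RDR5 were at 0.18 TPM or less in all libraries.

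MORC7 regions (a peak at q below 0.01 and fold enrichment above 2 in at least 2 of the 3 wild-type MORC7 libraries) lay within 1 kb of 3 of the 8 genes: RDR1, DCL4 and DCL3. Over all 32835 genes with a nuclear position the share was 25.4%, and over those tested in RNA-seq it was 25.9%. The 8 genes span 4.18 to 10.1 kb, beside a median of 2.02 kb over all genes, so their windows were longer. Shares of genes with a peak within 1 kb, here and below, were not adjusted for gene length. All 3 regions lay at or before the start of the gene, where 16.8% of all genes had a region. At RDR1 the fold enrichment was 4.77, 2.51 and 6.64 in replicates 1, 2 and 3. At DCL3 it was 2.55, 2.15 and 3.70, and at DCL4 it was 2.91 and 4.85 in replicates 1 and 3, with no peak listed in replicate 2. The DCL3 region also overlaps its neighbour AT3G43910. The RDR1 peak was the strongest of these in each library, with 7.67%, 43.3% and 7.6% of that library's peaks above it. Under stricter limits (q below 0.001 and fold enrichment above 3) RDR1 alone kept a region. Neither library without a tag had a listed peak within 1 kb of any of the 8 genes, beside 1.3% and 2.84% of all genes with a passing one in each and 4.13% in either.

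The windows of 200 bases centred on the median MORC7 summit are shown because the peaks fell on them. They lie 216 bases (RDR1), 273 bases (DCL4) and 302 bases (DCL3) before the annotated gene start. Each is written 5′ to 3′ on the strand of the gene from the TAIR10.1 reference, with CG dinucleotides in capitals. CG is the context in which MET1 maintains methylation, and whether these sites were methylated was not read here.
RDR1 (chr1:5098387-5098586, minus strand): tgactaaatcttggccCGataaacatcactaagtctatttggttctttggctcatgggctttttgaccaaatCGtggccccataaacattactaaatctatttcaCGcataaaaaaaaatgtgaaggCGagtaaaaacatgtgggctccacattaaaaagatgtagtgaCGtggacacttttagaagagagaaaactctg
DCL4 (chr5:6869481-6869680, minus strand): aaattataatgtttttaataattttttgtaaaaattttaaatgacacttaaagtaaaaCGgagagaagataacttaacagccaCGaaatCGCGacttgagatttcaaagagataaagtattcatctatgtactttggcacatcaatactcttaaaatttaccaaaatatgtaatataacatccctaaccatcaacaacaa
DCL3 (chr3:15752985-15753184, plus strand): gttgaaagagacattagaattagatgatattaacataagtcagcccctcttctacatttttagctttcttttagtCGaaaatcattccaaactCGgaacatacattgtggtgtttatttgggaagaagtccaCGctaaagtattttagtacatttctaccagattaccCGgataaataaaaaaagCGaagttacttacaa
The windows held 5, 4 and 5 CG dinucleotides. Of the windows at the same distance before 27443 protein-coding genes, 35.6%, 48.2% and 35.7% held at least as many, so none of the 3 stood out by this count. The share of G and C was 38% for RDR1, 26.5% for DCL4 and 33% for DCL3, beside medians of 30.5%, 30.5% and 31% over all genes. The RDR1 window held 1 W-box (TTGACC or TTGACT on either strand, the element that WRKY factors bind), as did at least 1 in 21.7% of all windows, and the other windows held none.

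**Figure D4:**
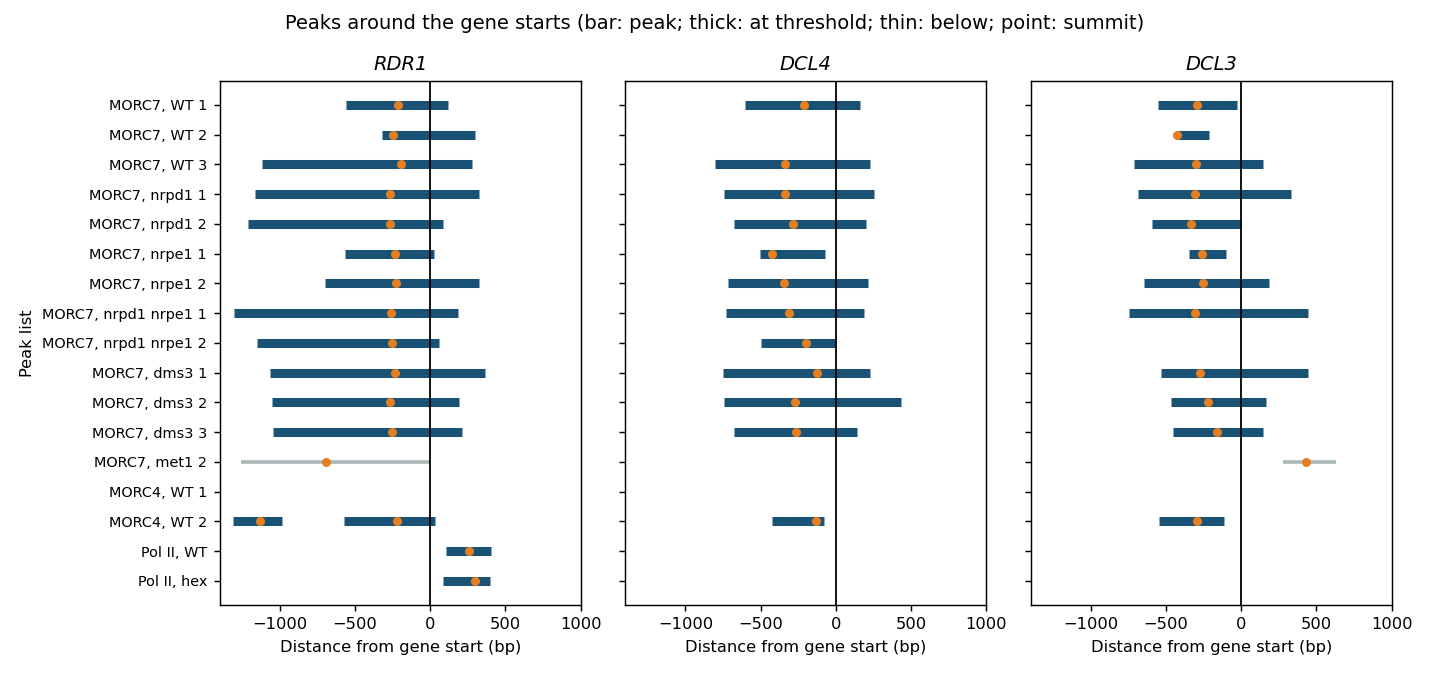
Peaks around the starts of RDR1, DCL4 and DCL3, as distance from the annotated start in bases (negative is before the start), 1 row per peak list. Thick bars pass the thresholds, thin bars do not, and points are summits. MORC7 summits in wild type and RdDM mutants fall before the start, and the Pol II peaks of RDR1 lie after it.

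The 3 regions were also present in RdDM mutants. RDR1 and DCL4 had a MORC7 peak in 9 of 9 mutant libraries and DCL3 in 8 of 9, with none listed in nrpd1 nrpe1 replicate 2. Of the 8332 genes with a wild-type region, 33.8% had a peak in all 9 libraries and 44.2% in at least 8. Fold enrichment in the mutants was 3.83 to 7.08 at RDR1 (wild type 2.51 to 6.64), 2.07 to 6.36 at DCL4 and 2.18 to 4.28 at DCL3. The ranges of wild type and mutants overlapped for each gene. Among the mutants the highest values came from nrpd1, with 7.08 and 6.34 at RDR1, 5.72 and 6.36 at DCL4, and 3.70 and 4.28 at DCL3. Fold enrichment is set by the peak caller against the background of each library, so values of different libraries are given side by side as a description.

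In the met1 library, none of the 3 regions had a peak that passed the thresholds. RDR1 had a listed peak with a fold enrichment of 2.00 (just under the limit) and a summit at -693 bases from the start (minus is before it), DCL3 had one of 1.80 with its summit inside the gene, and DCL4 had none. Of the genes with a wild-type region, 59.9% had a passing met1 peak within 1 kb. DCL2 was the only gene of the 8 with a passing peak in met1, beside 22.3% of all genes. Its fold enrichment was 2.37, with the summit 887 bases inside the gene in a peak that also overlaps AT3G03305, where wild-type replicate 1 listed a peak of 1.61. Of genes with no wild-type region, 9.48% had a met1 peak. With 1 met1 library these values have no replicate check.

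MORC4 had passing peaks at the same 3 genes in replicate 2 (fold enrichment 3.59 at RDR1, 2.27 at DCL4 and 2.81 at DCL3) and at none of the 8 in replicate 1, beside 19.2% and 6.24% of all genes. Of all genes with a MORC7 region, 51.2% had a MORC4 peak within 1 kb in replicate 2 and 11.6% in replicate 1. A second MORC4 peak near RDR1 (2.78) lies nearer to AT1G14800, whose start it overlaps. The remaining wild-type MORC7 peaks that passed the thresholds were each found in a single library. RDR2 had one of 2.1 in replicate 3, 147 bases past the end of the gene (with a listed peak of 1.63 in replicate 1), and again in both nrpd1 libraries (2.1 and 2.27). RDR6 had one of 2.62 in replicate 2, which lies 28 bases from AT3G49510 and 47 bases from RDR6. HEN1 had listed peaks below the limit across its start (1.65 and 1.89), and DCL1 had no MORC7 peak within 1 kb in wild type.

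**Figure D5:**
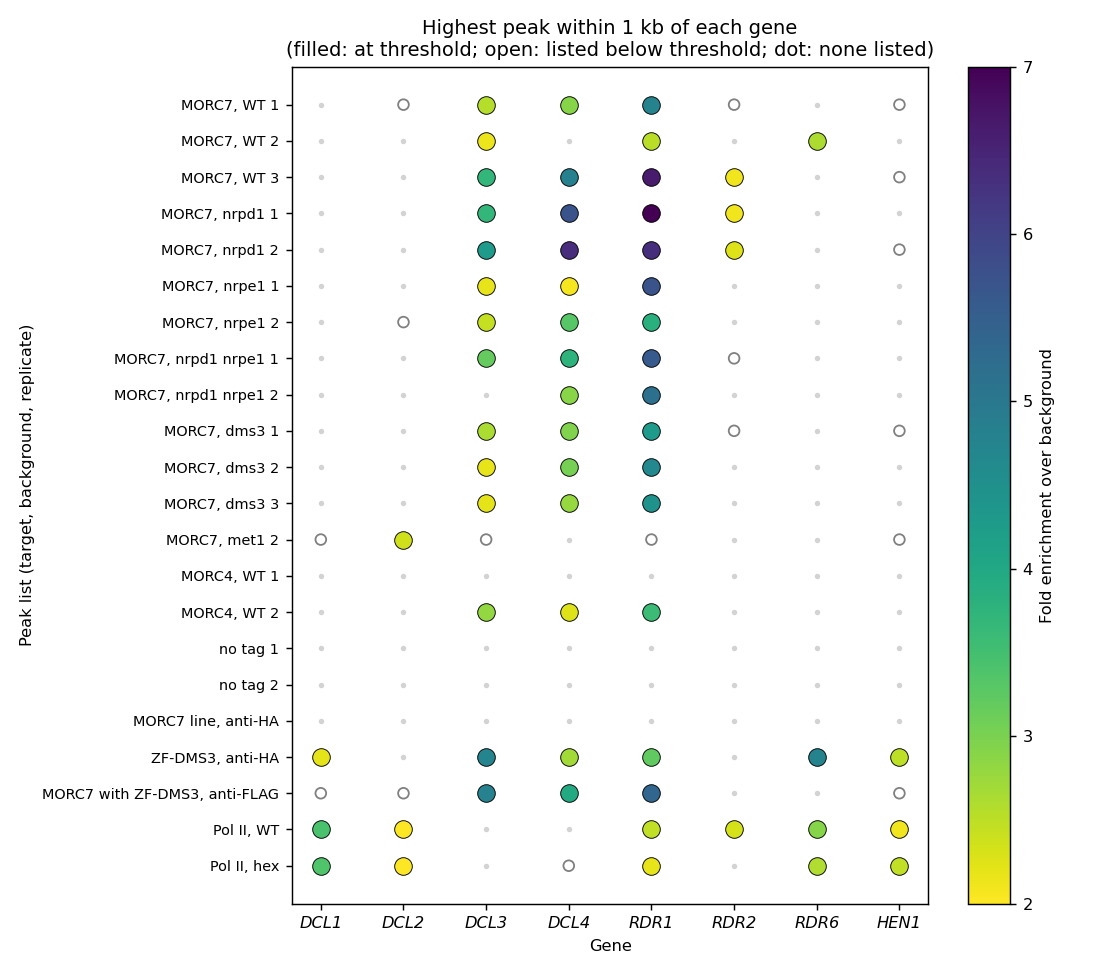
Highest peak within 1 kb of each of the 8 genes (columns) in each of the 22 peak lists (rows). Filled circles pass the thresholds and are coloured by fold enrichment over background (scale capped at 7), open circles are listed peaks below the thresholds, and dots mark no listed peak. RDR1, DCL4 and DCL3 hold peaks in 12, 11 and 11 of the 12 MORC7 lists of wild type and RdDM mutants.

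Pol II peaks lay within 1 kb of 6 of the 8 genes in wild type and of 5 of the 8 in hex, beside 44.4% and 42.8% of all genes and 66.3% and 64.4% of the genes tested in RNA-seq. The 8 genes are longer than the median gene, so these shares are not like for like. DCL1, DCL2, RDR1, RDR6 and HEN1 had peaks in both lists. Those at the starts of DCL1 and RDR6 also overlap AT1G03993 and AT3G49510. The DCL2 peak that passed in both (2.01 in each) crosses the end of the gene and also overlaps AT3G03290. A peak inside DCL2 passed in wild type (2.02) and not in hex (1.93). At the start of the gene, fold enrichment in wild type and hex was 2.28 and 2.21 for DCL1, 2.91 and 2.60 for RDR6, and 2.1 and 2.48 for HEN1. At RDR1 it was 2.47 and 2.19, with the summit 260 and 299 bases into the gene. RDR2 had a peak in wild type (2.32) and none listed in hex. That peak also overlaps AT4G11120. HEN1 had a further passing peak across its end in hex (2.29), with none listed there in wild type. DCL3 had no listed Pol II peak and DCL4 only one below the limit (1.79, hex). Both mRNAs were detected in all 9 RNA-seq libraries, but the tissues may differ. The study made its ChIP from floral tissue, and the tissue labels of the RNA-seq conflict. Over the end of DCL1 the values were 3.44 and 3.37, where PPa1 ends on the opposite strand. Each list comes from 1 library, and under the stricter limits 1 gene (DCL1) remained in each.

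In the line with the zinc finger fusion, DMS3 (anti-HA) had peaks at 6 of the 8 genes, beside 50.9% of all genes, and MORC7 (anti-FLAG) at 3 of the 8, beside 32.1%. The 3 genes with MORC7 peaks there were again RDR1 (5.36), DCL3 (4.79) and DCL4 (3.96). DMS3 fold enrichment was 4.73 across the start of DCL3, 3.23 across that of RDR1, 2.71 across that of RDR6 and 4.76 across the end of RDR6. The anti-HA list of MORC7-FLAG plants, which carry no HA tag, had no peak near any of the 8 genes, beside 0.0274% of all genes.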

How the data were processed

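RNA-seq (TruSeq Stranded) was deposited as TPM per gene for 9 libraries, by the authors; the submitters' processing notes list RSEM 1.3.1 among the tools, but the quantifier of these libraries is not given in the sources used here. One deposited table (labelled nrpe1 replicate 2) held its values in 2 identical copies, the second headed as a hex library, so its unit was recorded as other, and the first copy was used. Whether reads were assigned by strand is not given in the sources used here. Peaks were called by the authors with MACS2 2.1.1 from reads aligned to TAIR10 with Bowtie2 2.1.0 (unique, perfect matches; duplicates removed with SAMtools 1.9). The deposited lists give fold enrichment, a ratio over background, and -log10 p and q values.

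Here, limma 3.58.1 (R 4.3.3, eBayes with trend, two-sided) was fitted on log2(TPM + 1) to all 9 libraries and the 17459 genes that reached 1 TPM in 3 or more libraries. The code was run on simulated data with the same spread for a gene in every library and changes above 2-fold. That run cannot show how the fit handles libraries that stand apart or smaller differences. Nothing in the labels says that libraries came from separate plants, so p-values measure the spread between these libraries, which may be technical. Peaks on the 5 nuclear chromosomes were kept at q below 0.01 and fold enrichment above 2, repeated intervals once. Gene positions and sequences came from RefSeq TAIR10.1, whose chromosome lengths equalled the highest peak end on 4 of 5 chromosomes. By rule, named genes were the 8 members, the mutated genes and up to 4 called genes of each list. The rule also named the 3 genes most like each member past an adjusted p of 0.05. Other genes, such as MIR162A, WRKY70, AGO2, AGO4 and CLSY1, were named outside this rule. The members and lists were chosen with earlier results of these data known. Alternatives changed the pseudocount, filter, scaling, fit, block, libraries and peak limits. Of 47 samples, 31 had files used here, and the others were not analysed here.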

Additional observations from a re-analysis of the deposited data

How the results depend on the processing

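Over all genes, the count called between the libraries labelled nrpe1 and WT (688) was 58 with no filter on low TPM, 105 with only the 6 libraries compared, 4015 with no minimum fold, 112 without the 3 libraries that stood apart (chosen after seeing the data), and 32 to 1606 with 1 library left out. The count between labelled hex and labelled nrpe1 (104) was 54 to 929 with 1 library left out, and that between labelled hex and WT (56) was 32 to 47. Of the 8 genes, 2 were called in nrpe1 against WT with no minimum fold, and 0 to 1 in hex against nrpe1 with 1 library left out. DCL2 and DCL4 in nrpe1 against WT lost an adjusted p below 0.05 (limma) with no filter (0.11 and 0.084), with quantile normalization (0.059 and 0.067), with only 6 libraries (0.065 and 0.070) and without the libraries that stood apart (0.29 and 0.33). The cause was not tested. The last cases also used fewer libraries, and the case with no filter adjusted over 33602 genes.

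With a replicate block, 219 genes were called between labelled hex and labelled nrpe1, 821 between labelled nrpe1 and WT and 62 between labelled hex and WT, and the adjusted p of DCL2 and DCL4 in nrpe1 against WT was 0.028 and 0.066. Same-numbered libraries did not deviate together throughout (r of -0.35 to 0.60), so the numbers were not taken as a pairing.

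Differences near 0 changed sign. With quantile normalization DCL1 was at -0.0082 (hex against WT) and -0.075 (nrpe1 against WT) and RDR6 at 0.025 (hex against nrpe1). Without the 3 libraries that stood apart, nrpe1 against WT was -0.024 for DCL1 and 0.047 for HEN1, and hex against nrpe1 was 0.058 for DCL3, 0.0069 for DCL4 and 0.19 for RDR2. With 1 library left out, hex against WT ranged from -0.0099 to 0.079 for DCL1, -0.021 to 0.17 for DCL3, -0.35 to 0.12 for RDR1 and -0.0075 to 0.24 for HEN1. Hex against nrpe1 ranged from -0.031 to 0.057 for DCL1, -0.15 to 0.046 for DCL3, -0.095 to 0.092 for RDR2 and -0.088 to 0.011 for RDR6, and DCL1 in nrpe1 against WT from -0.0077 to 0.058. By contrast, RDR1 in hex against nrpe1 kept its sign (-1.01 to -0.53).

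The number of the 8 genes with a MORC7 region (3) was 1 under the stricter peak limits, 5 with all deposited peaks, 5 with a peak in at least 1 of 3 libraries, and 2 to 3 with 1 library left out. Under the stricter limits 1 gene had a Pol II peak in wild type and 1 in hex. Sequencing depth was not known, and 1 library per list limits the Pol II, met1 and zinc finger values.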

Other observations

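Of 26 microRNA and trans-acting small RNA targets, 24 were tested and none was called at 2-fold in any comparison. In the libraries labelled nrpe1, 3 were higher and 1 was lower than in WT at an adjusted p below 0.05 (limma), beside 15.3% and 7.68% of all tested genes. The list did not stand above that background. The genes named here were chosen after their values were seen. PHO2, a ubiquitin-conjugating enzyme of phosphate homeostasis and target of miR399, was at 21.81, 20.78 and 28.33 TPM in WT, at 31.25, 47.84 and 45.58 TPM in the libraries labelled nrpe1, and at 34.85, 35.86 and 32.89 TPM in those labelled hex (0.78, SE 0.17, adjusted p 0.038 for nrpe1, and 0.54, SE 0.17, adjusted p 0.67 for hex). The libraries of both mutant labels were above all WT libraries. TCP4, a leaf growth regulator targeted by miR319, was at 49.75, 47.24 and 48.45 TPM in WT and at 36.40, 26.39 and 24.63 TPM in the libraries labelled nrpe1 (-0.74, SE 0.19, adjusted p 0.039). ARF2 (0.41, SE 0.11, adjusted p 0.041) and AP2 (0.27, SE 0.08, adjusted p 0.049) were the other members higher there.

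Of 10 argonautes, which hold small RNAs and act on their targets, 5 were tested, and 1 was higher and 0 were lower in the libraries labelled nrpe1 than in WT at an adjusted p below 0.05, beside 15.3% and 7.68% of all genes. AGO2, known from antiviral defence, was at 3.44, 3.02 and 4.08 TPM in WT and at 4.37, 6.11 and 5.71 TPM in the libraries labelled nrpe1 (0.50, SE 0.13, adjusted p 0.039 by limma). AGO4, the main argonaute of RdDM, was at 14.33, 12.11 and 12.94 TPM in WT, at 11.81, 7.36 and 8.09 TPM in the libraries labelled nrpe1, and at 14.36, 13.48 and 8.80 TPM in those labelled hex. AGO4 was below all WT libraries in each library labelled nrpe1, and the difference of -0.51 (SE 0.20, adjusted p 0.087) missed the threshold. CLSY1, which brings Pol IV to chromatin, was at 1.65, 1.22 and 1.54 TPM in WT, at 1.93, 2.43 and 2.11 TPM in the libraries labelled nrpe1, and at 3.49, 3.28 and 2.63 TPM in those labelled hex. All 6 mutant libraries were above WT for CLSY1, and neither difference passed the threshold (0.35, SE 0.13, adjusted p 0.068 for nrpe1, and 0.74, SE 0.13, adjusted p 0.062 for hex). AGO2, AGO4 and CLSY1 were called at 2-fold in no comparison and were picked from their lists after the values were seen.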
